A study of Mus musculus with 12 samples.

Results

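Cirbp, Rbm3, Hspa1a, Hspa1b, Hsph1, Dnajb1, Hsp90aa1, Hspa8, Hspd1 and Hspe1 are the cold-inducible and heat shock genes described here, 10 of the 55471 genes listed for mouse colonic crypts. They were chosen by symbol with the counts and TPM of these libraries, and results from them, already in view, so their levels and fold changes are a description and not a test of the list. All 10 had enough reads to enter the fit of 14610 genes. RNA was sequenced from 12 C57BL/6J mice, 1 library per mouse, and per the study's methods the mice were females 8 weeks old whose crypts were released from the colon with EDTA.

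The 4 groups of 3 mice combined 2 alleles of CBP, a histone acetyltransferase and coactivator, with 2 states of p53. CBPWT mice carried the wild-type allele and CBPAA mice a knock-in allele with alanine in place of phosphorylated serines. In the p53-floxed groups p53 was flanked by loxP sites and kept, and in the p53ΔIEC groups Cre under the Villin promoter, which is active in intestinal epithelium, deleted it there. The comparisons asked what the CBP allele changed with p53 present or deleted, and what the p53 deletion changed on either allele. Trp53 was at 23.3 to 33.5 TPM (transcript abundance scaled to gene length and to the library) in the 6 p53-floxed libraries and at 3.26 to 6.13 TPM in the 6 p53ΔIEC libraries, as the labels say. An amino acid exchange cannot be read from gene counts, and Crebbp, which encodes CBP, lay between 5.98 and 11.5 TPM in all 12 libraries.

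Heat shock proteins are chaperones that hold, fold or disaggregate other proteins. When unfolded proteins build up, heat shock factor 1 (HSF1) is released from chaperones and binds heat shock elements, inverted repeats of GAA, upstream of genes such as Hspa1a and Hsph1. CIRBP and RBM3 are RNA-binding proteins whose messages rise with mild cooling and fall with warming. In mice both follow the daily rhythm of body temperature, and CIRBP in turn acts on messages of the circadian clock.

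RefSeq promoter windows (GRCm38.p6, from 250 bases before to 50 bases after a gene's start) were at hand for 7 of the 10 members, Cirbp, Hspa1a, Hspa1b, Hsph1, Dnajb1, Hspd1 and Hspe1. Capitals in the stretches below mark a heat shock element in the chaperone genes and a cold response element in Cirbp. The letters searched for were GAANNTTC or TTCNNGAA, the 2-unit heat shock element, and TCCCCGCC, or GGCGGGGA on the other strand, the cold response element. Hspa1a and Hspa1b had identical letters over the 90 bases shown (GRCm38 chr17:34972217-34972306 and chr17:34959299-34959388, both minus strand), with GAAGATTC at 104 bases before the start, and differed at 3 of the 250 bases before the start.
Hspa1a and Hspa1b: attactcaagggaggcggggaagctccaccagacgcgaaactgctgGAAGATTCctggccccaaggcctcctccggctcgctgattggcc
Hsph1 (chr5:149636351-149636380, minus strand): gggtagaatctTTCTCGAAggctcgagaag
Hspe1 (chr1:55088053-55088082, plus strand): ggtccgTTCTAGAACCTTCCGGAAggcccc
Cirbp (chr10:80167589-80167618, plus strand): ctgTCCCCGCCtcctagtcgctagcgggcg

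Hspe1 and Hspd1 lie head to head, and the run shown for Hspe1 is the same element read from the other strand in a window of Hspd1, where 3 two-unit elements overlap. Of the 32851 RefSeq promoter windows, 15.1% held a 2-unit element, 0.603% a 3-unit element (the same letters with the next inverted unit added) and 5.38% a cold response element. In GENCODE M21 the runs of Hspa1a, Hspa1b and Cirbp overlap no exon, the Cirbp run lying inside the span of the gene (chr10:80165985-80172786), downstream of its earliest annotated start. Most of the Hsph1 run, with its marked letters, lies inside the annotated gene (chr5:149614287-149636376) and overlaps 2 exon entries. The Hspe1 run lies in the span of Hspd1 (chr1:55077835-55088243) and overlaps 1 exon there. The 3-unit letters occurred in windows of Hspd1, Hspe1 and Hsph1. The cold response letters also stood in Hspa1a and Hspa1b, at 137 bases before the start in both and in lower case above, and in Dnajb1, whose windows held no heat shock element of these letters. A match is a string of letters and not a measured binding site.

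Levels per length differed widely between members. Hspa8, the constitutive HSP70 of the cytosol, had the highest level in each library, 619 to 905 TPM. Hspd1, the mitochondrial chaperonin HSP60, followed at 196 to 322 TPM and did not overlap Hsp90aa1, the inducible HSP90, at 84.6 to 174.8 TPM. Hspe1, the lid of HSP60 (77.1 to 119 TPM), Rbm3 (62.3 to 116 TPM) and Cirbp (42.6 to 136 TPM) overlapped each other, so their order is not set by these data. Dnajb1, the J-domain partner of HSP70, spanned 36.1 to 48.7 TPM and overlapped Cirbp. The stress-inducible HSP70 genes were low, with Hspa1b at 3.79 to 30.8 TPM and Hspa1a at 0.890 to 10.7 TPM, and they overlapped the HSP110 gene Hsph1 at 4.10 to 11.7 TPM. The highest library exceeded the lowest 12.0-fold for Hspa1a, 8.11-fold for Hspa1b, 3.19-fold for Cirbp and 2.85-fold for Hsph1, against 1.35-fold for Dnajb1.

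**Figure D1:**
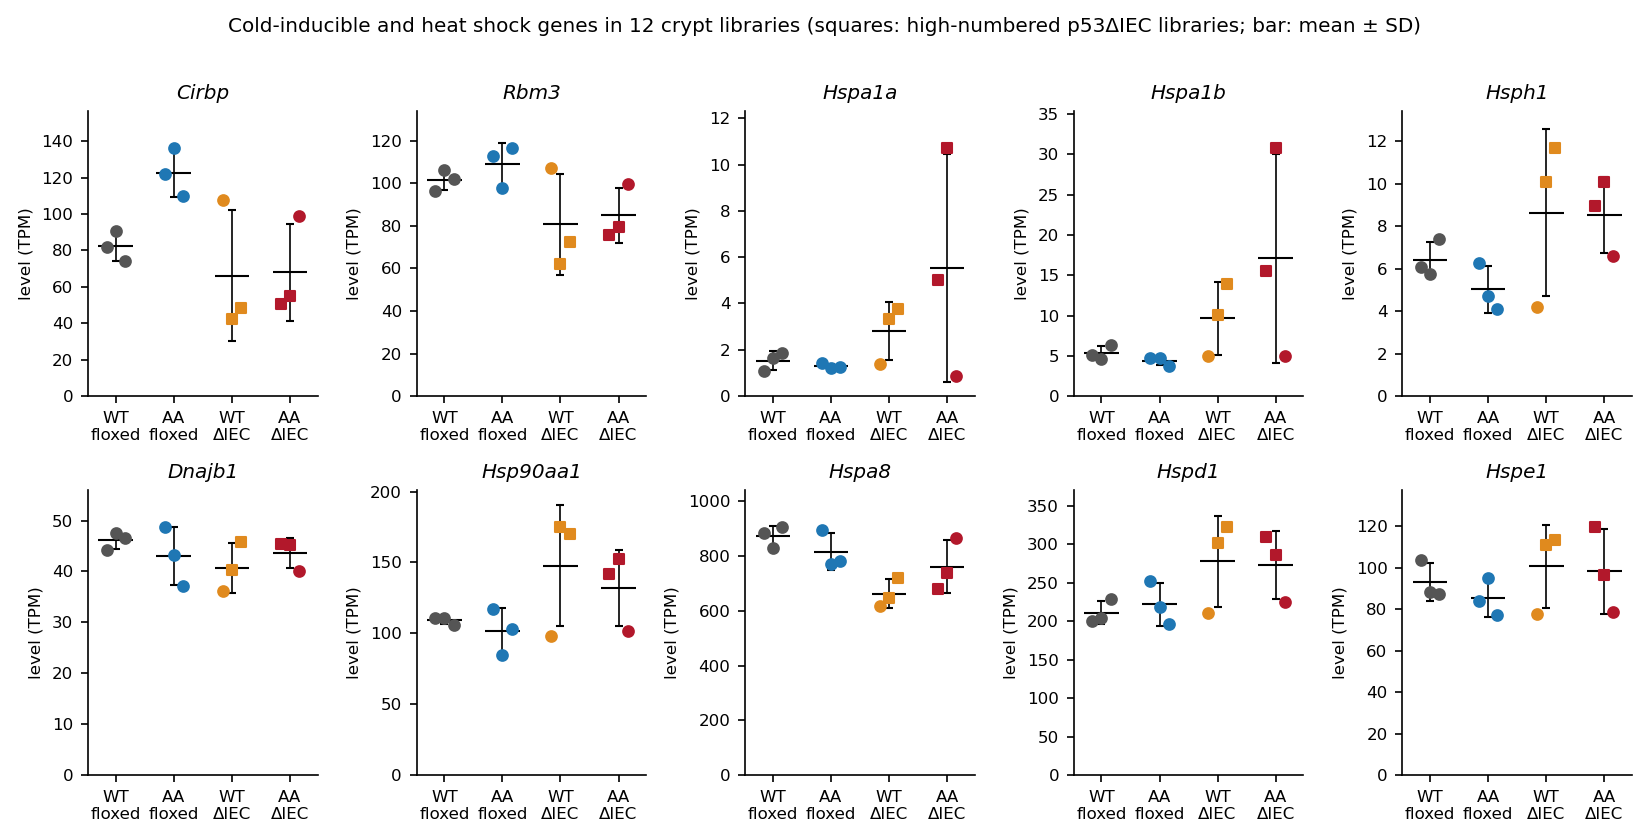
Level in TPM (vertical axes, from 0) of each of the 10 members in the 12 libraries, by group (horizontal axis), with the mean and SD of 3 mice as lines. Squares are the 4 high-numbered p53ΔIEC libraries (CBPWTp53ΔIEC replicates 2 and 3, CBPAAp53ΔIEC replicates 1 and 2), in which Cirbp lay between 42.6 and 54.9 TPM and Hspa1b between 10.1 and 30.8 TPM, while circles lay between 74.0 and 136 TPM and between 3.79 and 6.36 TPM.

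Hspa1a and Hspa1b share 1524 of their 75-base stretches, 55.8% of those of Hspa1b, so reads could be counted on either gene or dropped, depending on settings not given in the sources used here. Their separate values are therefore uncertain, and the pair is best read together. Pseudogenes share 42.8% of the 75-base stretches of Hsp90aa1 and 33.0% of those of Hspa8. Hspd1 shares stretches with its pseudogenes and with Hspe1 (31.0% in all), and Rbm3 with its own (7.62%). Cirbp, Hsph1 and Dnajb1 share none. Hspd1 and Hspe1 overlap by 112 exon bases on opposite strands, Hspa1a overlaps Gm20481 by 564 such bases and Rbm3 overlaps Rbm3os by 94, and the strand setting of the counting was not given.

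With p53 present, Cirbp was higher on the CBPAA allele. It was at 82.1, 90.6 and 74.0 TPM in the CBPWTp53-floxed libraries and at 122, 136 and 109.6 TPM in the CBPAAp53-floxed libraries. The groups did not overlap, and their means were 82.2 ± 8.29 and 122 ± 13.2 TPM (SD, n = 3 each). The fitted log2 fold change was 0.70 with an SE of 0.43, in a fit whose spread came from all 4 groups. Rbm3 was at 96.4, 106 and 102 TPM against 113, 97.7 and 116 TPM, a log2 fold change of 0.23 with an SE of 0.25. Its groups overlapped in TPM.

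No member passed the cutoff, set at an adjusted p of 0.05 in edgeR's quasi-likelihood test with a log2 difference above 0.5 in either direction, for CBPAAp53-floxed vs. CBPWTp53-floxed, where 0.0% of all genes passed it. DESeq2 and limma also called 0 members, and 0 had an unadjusted p under 0.05 in edgeR. By CPM, counts scaled to library size with edgeR's TMM factors and not to gene length, Cirbp, Rbm3 and Hspd1 were higher with no overlap between the groups. By this measure 0 members were lower. Over all genes 9.75% were higher and 9.62% lower in this way (19.4% in all). In the fit of these 6 libraries alone, Cirbp had the same log2 fold change with an SE of 0.12 and did not pass either (adjusted p = 0.185, edgeR's quasi-likelihood test).

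**Figure D2:**
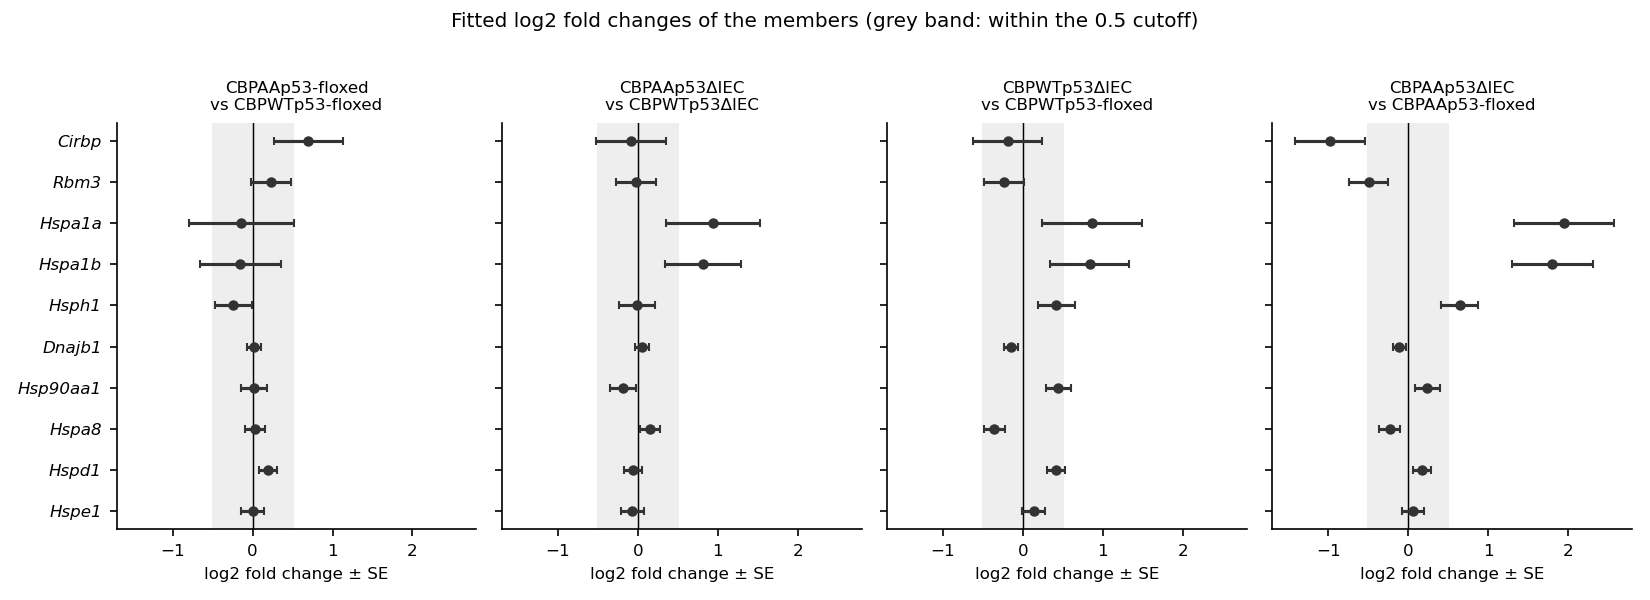
Fitted log2 fold change of each member with its SE (horizontal axes) in 4 comparisons. The SEs of Hspa1a, Hspa1b and Cirbp are the widest, and the largest shifts are those of Hspa1a (1.95) and Hspa1b (1.81) for CBPAAp53ΔIEC vs. CBPAAp53-floxed.

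Deletion of p53 on the CBPAA allele went with a lower mean of both cold-inducible genes and higher means of the inducible HSP70 genes and Hsph1. Cirbp was at 50.5, 54.9 and 98.7 TPM in the CBPAAp53ΔIEC libraries, below each of the CBPAAp53-floxed libraries (log2 fold change -0.97, SE 0.44). Rbm3 was at 75.8, 79.4 and 99.6 TPM, and the last of these lay inside the CBPAAp53-floxed range in TPM (log2 fold change -0.49, SE 0.25). In both genes it was replicate 3 that stood near the controls.

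Hspa1b was at 4.73, 4.70 and 3.79 TPM in the CBPAAp53-floxed libraries and at 15.6, 30.8 and 4.96 TPM in the CBPAAp53ΔIEC libraries (log2 fold change 1.81, SE 0.50). Hspa1a was at 1.42, 1.21 and 1.24 TPM against 5.01, 10.7 and 0.890 TPM (log2 fold change 1.95, SE 0.63). Replicate 3 was again at the control level, so the spread within the p53ΔIEC group was as large as the difference in means. Few reads stood behind Hspa1a, 15 to 165 a library. Hsph1 was at 6.25, 4.71 and 4.10 TPM against 8.94, 10.1 and 6.59 TPM, with no overlap (log2 fold change 0.64, SE 0.23).

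The other members moved less: Hsp90aa1 by 0.24 (SE 0.16), Hspd1 by 0.17 (SE 0.11), Hspe1 by 0.06 (SE 0.14), Dnajb1 by -0.11 (SE 0.09) and Hspa8 by -0.23 (SE 0.13), all on the log2 scale. No member passed edgeR's cutoff, which 0.0274% of all genes passed. By CPM Hsph1 was higher and Dnajb1, Rbm3 and Cirbp were lower with no overlap, against 7.86% and 7.18% of all genes (15.0% in all). Hsph1, Hspa1b and Hspa1a had an unadjusted p under 0.05, and limma called 0 members. DESeq2 called 1 member, Hspa1b (adjusted p = 0.0245), among 73 calls over 13457 genes tested. Without CBPAAp53ΔIEC replicate 3, edgeR called Hspa1b and Hspa1a, with log2 fold changes of 2.24 and 2.45, and the calls over all genes rose from 4 to 326.

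On the CBPWT allele the same members split the p53ΔIEC group. Cirbp was at 107.6 TPM in CBPWTp53ΔIEC replicate 1 and at 42.6 and 48.3 TPM in replicates 2 and 3, so the group lay on both sides of the CBPWTp53-floxed range (log2 fold change -0.19, SE 0.43). Rbm3 did likewise, at 107.4, 62.3 and 72.6 TPM (log2 fold change -0.24, SE 0.25). Hspa1b was at 4.95, 10.1 and 13.9 TPM against 5.13, 4.58 and 6.36 TPM in CBPWTp53-floxed crypts (log2 fold change 0.84, SE 0.50). Hspa1a followed it at 1.40, 3.32 and 3.75 TPM against 1.08, 1.65 and 1.87 TPM (log2 fold change 0.86, SE 0.63). Hsph1 was at 4.18, 10.1 and 11.7 TPM against 6.09, 5.74 and 7.38 TPM (log2 fold change 0.42, SE 0.23).

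Hspd1 had the smallest adjusted p of the members here but a log2 fold change under 0.5. It was at 211, 302 and 322 TPM in CBPWTp53ΔIEC and at 201, 204 and 229 TPM in CBPWTp53-floxed libraries. The groups overlapped in TPM but not by CPM, with a log2 fold change of 0.42 and an SE of 0.11. The adjusted p was 0.0546, and 0.0389 in the fit of these 2 groups alone (edgeR's quasi-likelihood test). Hsp90aa1 was at 98.4, 174.8 and 169.7 TPM against 110.6, 110.6 and 106.1 TPM (log2 fold change 0.44, SE 0.16). Hspa8 went the other way, at 619, 648 and 721 TPM against 883.5, 831 and 905 TPM, with no overlap (log2 fold change -0.36, SE 0.13). Dnajb1 (-0.15, SE 0.09) and Hspe1 (0.13, SE 0.14) moved little on the same scale.

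For CBPWTp53ΔIEC vs. CBPWTp53-floxed 0 members passed edgeR's cutoff, against 3.15% of all genes. By CPM Hsp90aa1 and Hspd1 were higher and Dnajb1 and Hspa8 lower with no overlap, against 16.1% and 14.7% of all genes (30.8% in all). Hspa8, Hsp90aa1 and Hspd1 had an unadjusted p under 0.05, and DESeq2 and limma called 0 members. Without CBPWTp53ΔIEC replicate 1, edgeR called Hsp90aa1 (log2 fold change 0.57), Hsph1 (0.67) and Rbm3 (-0.69), and the calls over all genes rose from 460 to 906. Over all genes they fell to 7, 2 and 1 without CBPWTp53-floxed replicates 1, 2 and 3 and to 7 and 4 without CBPWTp53ΔIEC replicates 2 and 3.

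With p53 deleted, all 10 members overlapped between the CBP alleles by CPM. For CBPAAp53ΔIEC vs. CBPWTp53ΔIEC 0 members passed edgeR's cutoff, against 0.00684% of all genes, and 0 had an unadjusted p under 0.05 or were called by DESeq2 or limma. Over all genes 4.76% were higher and 4.5% lower with no overlap (9.26% in all). Hspa1a and Hspa1b had log2 fold changes of 0.94 (SE 0.59) and 0.81 (SE 0.48), and Cirbp of -0.08 (SE 0.44). For CBPAAp53ΔIEC vs. CBPWTp53-floxed 0 members passed edgeR's cutoff, which 0.0205% of all genes passed. By CPM Hspd1 was higher and Dnajb1 lower with no overlap, against 10.8% and 10.3% of all genes (21.1% in all). There Hspa1a had a log2 fold change of 1.81 (SE 0.62) and Hspa1b of 1.65 (SE 0.50). Both genes and Hspd1 had an unadjusted p under 0.05, and limma called 0 members. DESeq2 called Hspa1b (adjusted p = 0.0136), among 274 calls over 12931 genes tested.

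Whether the p53 deletion acted differently on the 2 CBP alleles was tested as an interaction, which 0 members and 0.00684% of all genes passed in edgeR. No member had an unadjusted p under 0.05, and DESeq2 and limma called 0 members. The interaction was -0.78 (SE 0.61) for Cirbp and 0.97 (SE 0.70) for Hspa1b on the log2 scale. These comparisons share libraries, so their values are not independent of each other.

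The 6 p53ΔIEC libraries fell apart by the number that ends each library's name. CBPWTp53ΔIEC replicates 2 and 3 (p53koWT278 and p53koWT282) and CBPAAp53ΔIEC replicates 1 and 2 (p53koAA281 and p53koAA282) have the highest numbers and are called the high-numbered libraries here. CBPWTp53ΔIEC replicate 1 (p53koWT127) and CBPAAp53ΔIEC replicate 3 (p53koAA109) have low numbers, as do the 6 p53-floxed libraries. The sources do not say what the number stands for. The split was noticed in the members' own values, so those values describe it and do not test it.

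Cirbp was at 42.6, 48.3, 50.5 and 54.9 TPM in the 4 high-numbered libraries and at 74.0 to 136 TPM in the other 8, with the low-numbered p53ΔIEC libraries at 107.6 and 98.7 TPM. Rbm3 was at 62.3 to 79.4 TPM in the 4 and at 96.4 to 116 TPM in the 8. Hspa1b was at 10.1 to 30.8 TPM against 3.79 to 6.36 TPM, and Hspa1a at 3.32 to 10.7 TPM against 0.890 to 1.87 TPM. The direction of the cold-inducible pair was thus opposite to that of the inducible chaperones, in libraries of both CBP alleles.

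Hsph1 was at 8.94 to 11.7 TPM in the 4 libraries and at 4.10 to 7.38 TPM in the 8. Hsp90aa1 was at 141.5 to 174.8 TPM against 84.6 to 117 TPM, and Hspd1 at 286 to 322 TPM against 196 to 252 TPM. Hspa8 overlapped in TPM (648 to 737 against 619 to 905 TPM), as did Hspe1 and Dnajb1. By CPM, 5 members were higher in the 4 libraries with no overlap and 3 were lower (Cirbp, Rbm3 and Hspa8), against 8.43% and 6.46% of all genes (14.9% in all).

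**Figure D3:**
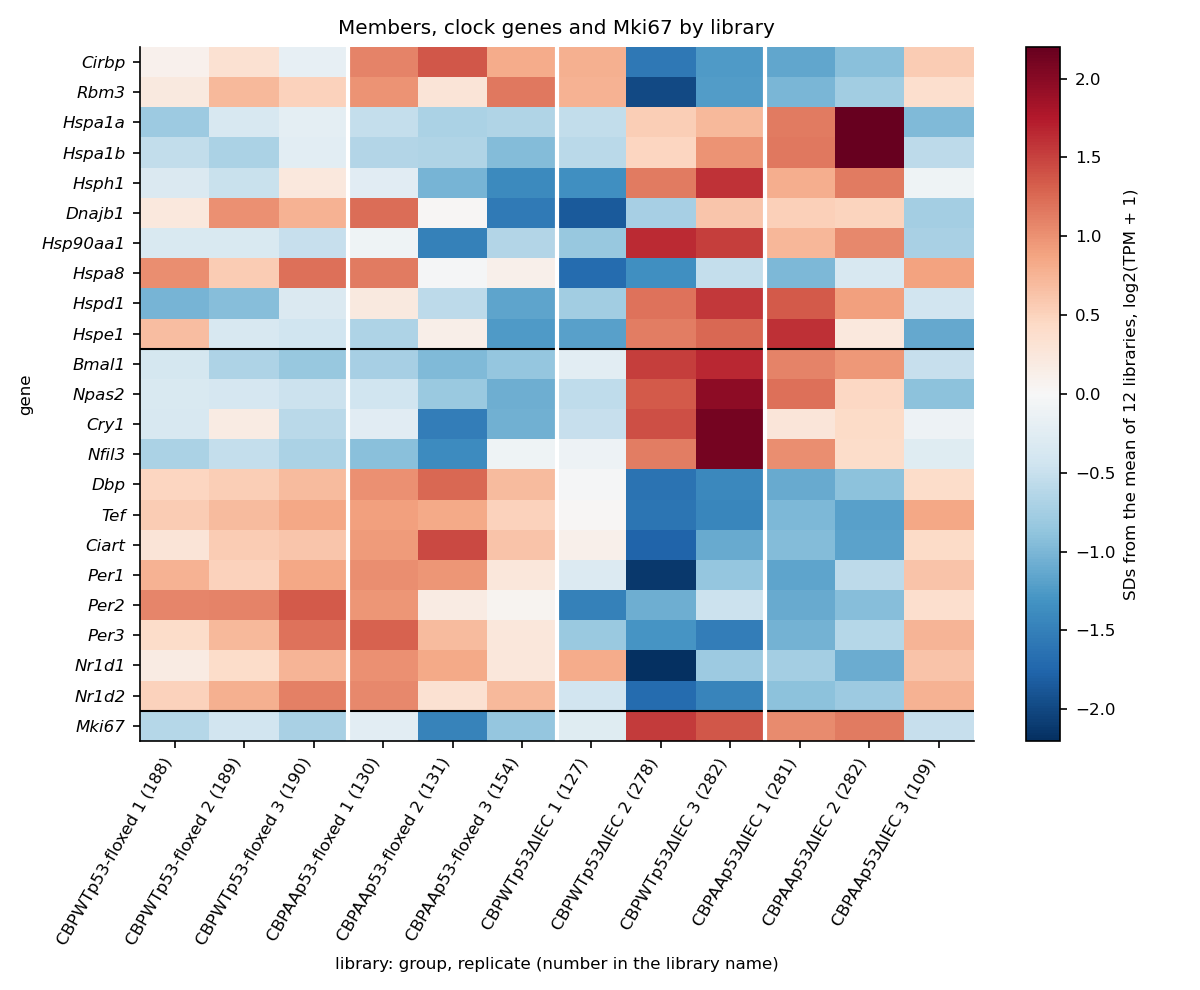
Members (top block), clock genes (middle block) and Mki67 (bottom row) in the 12 libraries (columns, with the number in the library name), as SDs from the gene's mean on the log2(TPM + 1) scale. The 4 high-numbered columns are blue for Cirbp, Rbm3 and Dbp and red for Hsph1, Hsp90aa1 and Bmal1, and the low-numbered p53ΔIEC columns look more like the floxed columns in most rows.

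With the number as an added term in edgeR's fit, which compares high-numbered with low-numbered libraries inside the p53ΔIEC groups, Cirbp differed by -1.31 (SE 0.14), Rbm3 by -0.75 (SE 0.14), Hspa1a by 1.99 (SE 0.45), Hspa1b by 1.52 (SE 0.32), Hsph1 by 0.71 (SE 0.15) and Hsp90aa1 by 0.45 (SE 0.12) on the log2 scale. Hspd1 and Hspe1 differed by 0.26 and 0.27, Hspa8 by -0.30 and Dnajb1 by -0.01. The term was called for 10.6% of all genes, 5.98% higher and 4.6% lower, so many genes besides the members separated these libraries.

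The comparisons of p53ΔIEC with p53-floxed crypts turned on which of these libraries were kept. Without the 2 low-numbered p53ΔIEC libraries edgeR called 6 members for CBPWTp53ΔIEC vs. CBPWTp53-floxed and 5 for CBPAAp53ΔIEC vs. CBPAAp53-floxed, beside 9.23% and 8.12% of all genes. It called 4 for CBPAAp53ΔIEC vs. CBPWTp53-floxed (6.14% of all genes) and 1, Cirbp, for CBPAAp53-floxed vs. CBPWTp53-floxed (0.0808%). In the p53 comparisons the log2 fold change of Cirbp was then -0.95 (SE 0.13) on the CBPWT allele and -1.37 (SE 0.13) on the CBPAA allele. Because those 2 libraries were set aside after the members' values were seen, these calls are no test. Without the 4 high-numbered libraries, which leaves 1 library in each p53ΔIEC group, Cirbp stood at 0.68 (SE 0.17) and -0.41 (SE 0.18), and 0 members were called by edgeR. With the number as a term, 0 members were called and Cirbp was at 0.48 on the CBPWT allele. The numbers of the CBPWTp53-floxed libraries all lie above those of the CBPAAp53-floxed libraries, so the CBP allele and the number cannot be told apart in them.

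**Figure D4:**
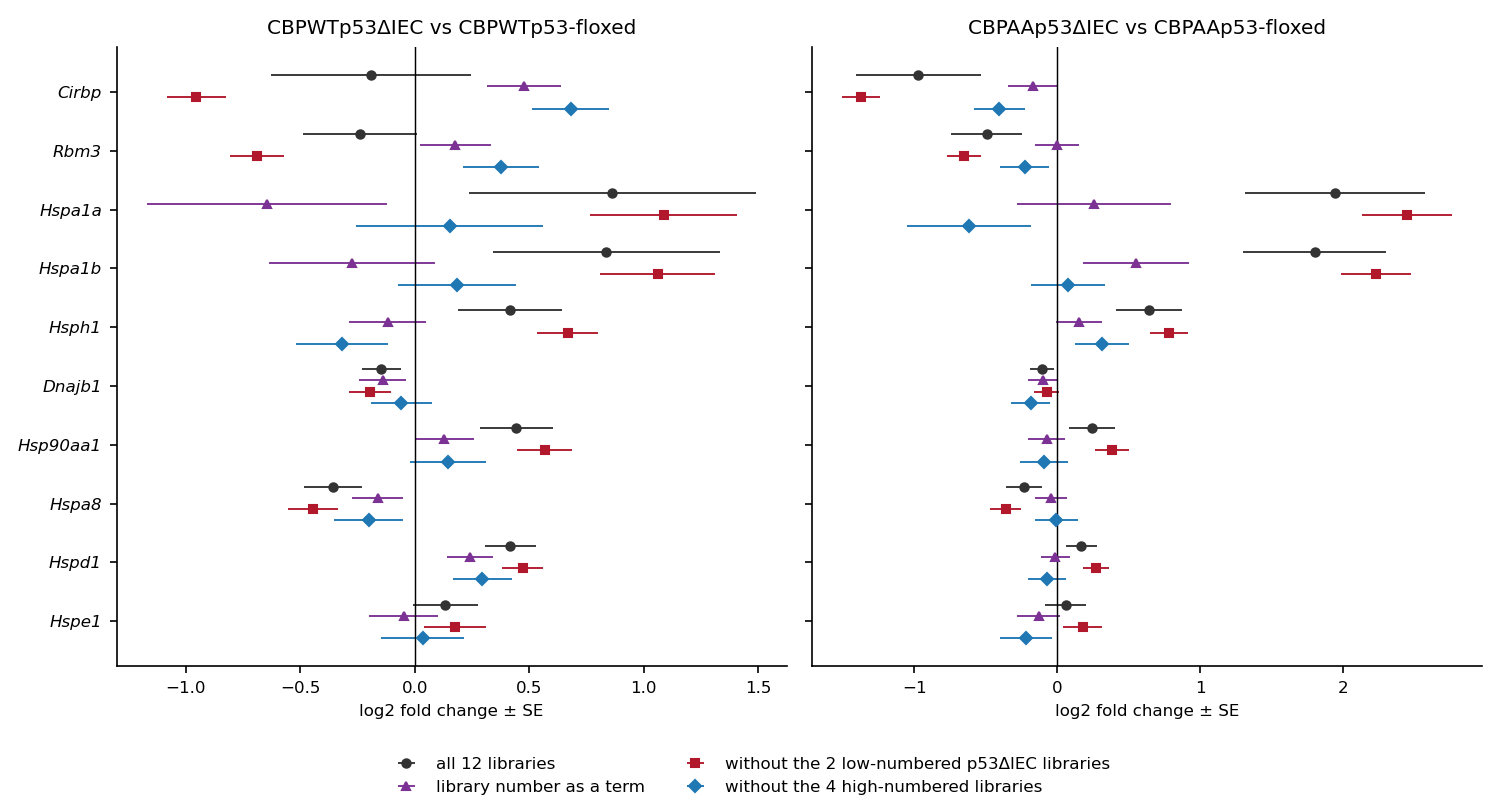
Log2 fold change of p53ΔIEC vs. p53-floxed crypts with its SE (horizontal axes) for each member, on the CBPWT allele (left) and the CBPAA allele (right), with all 12 libraries, with the number as a term and without either set of p53ΔIEC libraries. Cirbp on the CBPWT allele moved from -0.95 without the low-numbered p53ΔIEC libraries to 0.68 without the high-numbered ones.

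Clock genes moved with the members. Dbp, a clock output factor, was at 1.73, 2.28, 3.35 and 4.18 TPM in the 4 high-numbered libraries and at 10.4 to 34.9 TPM in the other 8. Bmal1, the core activator that peaks in antiphase to Dbp, was at 10.8 to 15.0 TPM against 4.20 to 6.09 TPM. Of 18 clock genes tested, 2 were called higher with the number term (Bmal1 and Npas2) and 9 lower, among them Nr1d1, Per1, Tef, Per3, Ciart and Dbp. Their median was -0.68 on the log2 scale, against 0.03 over all genes, of which 5.98% were called higher and 4.6% lower. For CBPWTp53ΔIEC vs. CBPWTp53-floxed Bmal1 rose (log2 fold change 1.22, adjusted p = 0.0370) and Per2 fell (-1.12, adjusted p = 0.0234, both edgeR), but both calls were lost without any 1 of the 3 CBPWTp53-floxed libraries or of CBPWTp53ΔIEC replicates 2 and 3 (adjusted p 0.0780 to 0.168). The call of Bmal1 was also lost without CBPAAp53-floxed replicate 1 or 3 (adjusted p = 0.0516 and 0.0543, edgeR). With no filter on low counts or with replicate number as a block it was lost too (adjusted p = 0.0901 and 0.0704, edgeR). limma kept neither call (adjusted p = 0.161 for Bmal1 and 0.0796 for Per2). In the p53-floxed groups Dbp was at 16.7, 17.9 and 20.47 TPM on the CBPWT allele and at 27.1, 34.9 and 20.54 TPM on the CBPAA allele, beside the higher Cirbp there. Per2 went the other way, at 9.74, 9.83 and 10.8 TPM against 9.40, 7.07 and 6.77 TPM. Of the 18 clock genes 0 were called for this comparison in edgeR, against 0.0% of all genes. Their median log2 fold change was 0.09, against 0.01 over all genes. The study's methods place the killing of all mice between mid-morning and mid-afternoon, with no hour for each mouse, and the part of the hour was not tested.

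**Figure D5:**
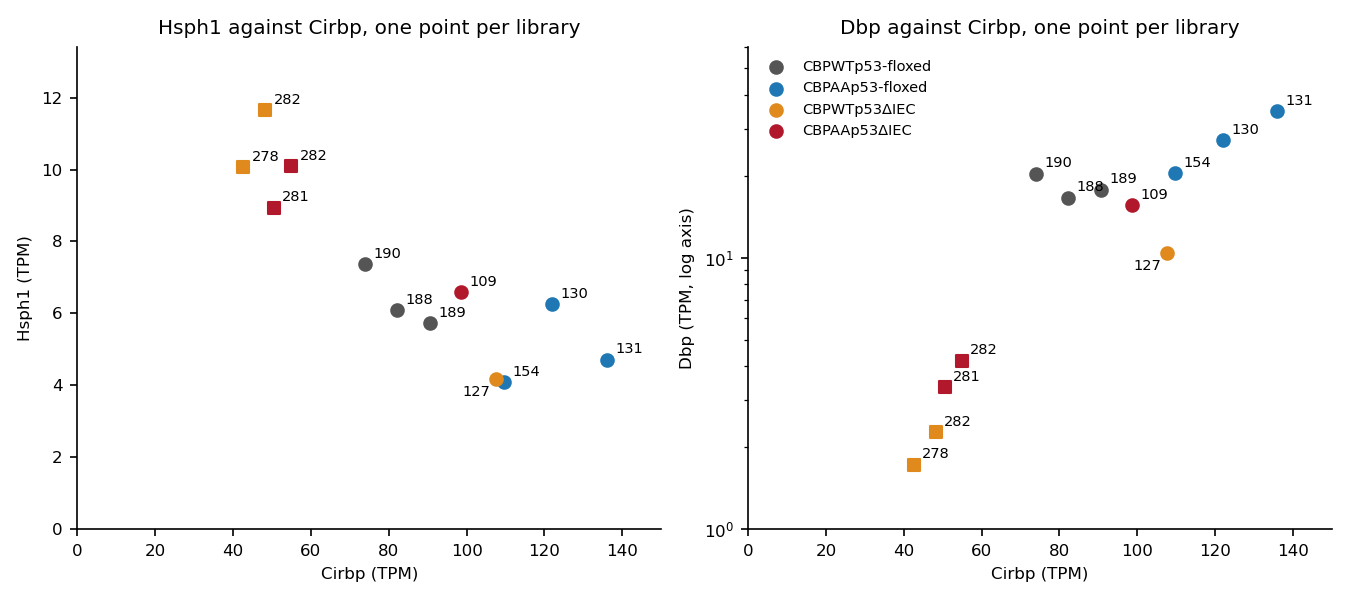
Hsph1 (left, TPM) and Dbp (right, TPM on a log axis) against Cirbp (TPM), 1 point per library with the number in its name, coloured by group. The 4 high-numbered libraries, drawn as squares, stand apart from the other 8 libraries, at 8.94 to 11.7 TPM of Hsph1 and 1.73 to 4.18 TPM of Dbp.

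Genes of cell division moved too. Mki67, a marker of cycling cells, was at 75.7 to 106.9 TPM in the 4 libraries and at 12.9 to 31.2 TPM in the 8. With the number term, 21 of 22 genes of this list were called higher, against 5.98% of all genes. For CBPWTp53ΔIEC vs. CBPWTp53-floxed 20 of the 22 rose, among them Rrm2 (11.2 ± 3.04 to 39.7 ± 13.9 TPM, SD, n = 3 each). Without CBPWTp53-floxed replicate 1 the 20 became 1, Rrm2, and without its replicate 2 or 3 or CBPWTp53ΔIEC replicate 2 or 3 they became 0, as they did with limma. They were 12 and 11 without CBPAAp53-floxed replicates 1 and 3, and 5 with no filter on low counts. Markers of the small intestine were higher in the low-numbered p53ΔIEC libraries CBPWTp53ΔIEC replicate 1 and CBPAAp53ΔIEC replicate 3, where 10 enterocyte genes summed to 6694 and 3899 TPM, against 935 to 1989 TPM in the 4 libraries and 1458 to 3509 TPM in the p53-floxed ones. With the number term 7 of the 9 tested were called lower and none higher, against 4.6% and 5.98% of all genes. Lct was at 0 in 2 libraries. The 5 Paneth cell genes summed to 12180 and 3167 TPM in the same libraries, to 56.2 to 1760 TPM in the 4 and to 23.9 to 730 TPM in the p53-floxed libraries. In bulk RNA, fewer cells of a type and less RNA per cell cannot be told apart, and the part of division, tissue or cell makeup in the members' levels was not tested.

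The crypts were epithelial, with 12 epithelial genes at 21390 to 39830 TPM in sum. The 10 stromal genes summed to at most 8.45 TPM, the 6 of smooth muscle to at most 0.743 TPM with Cnn1 at 0 throughout, and the 6 of endothelium to at most 1.85 TPM with Cdh5 at 0 throughout. The 12 leukocyte genes summed to 7.60 to 417.9 TPM, highest in CBPWTp53ΔIEC replicate 1, where Cd74, which epithelium can also express, made up 414.7 TPM, and S100a9 was at 0 throughout.

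Of 73 other chaperone and heat shock genes tested from 10 lists, 2 endoplasmic reticulum genes passed the cutoff for CBPWTp53ΔIEC vs. CBPWTp53-floxed, Calr (log2 fold change 0.65, adjusted p = 0.0413) and Sdf2l1 (0.73, adjusted p = 0.0279, both edgeR), where 3.15% of all genes passed. Both calls were lost without any 1 of the 3 CBPWTp53-floxed libraries or of CBPWTp53ΔIEC replicates 2 and 3 (adjusted p 0.0839 to 0.166), and that of Calr also without CBPAAp53-floxed replicate 1 or 3 or CBPAAp53ΔIEC replicate 2 (0.0503 to 0.0592). The calls of Calr and Sdf2l1 were also lost with replicate number as a block (adjusted p = 0.0829 and 0.0606, edgeR). limma kept neither of them (adjusted p = 0.253 and 0.147). In the other comparisons 0 of the 73 passed, where at most 0.0274% of all genes did. For CBPWTp53ΔIEC vs. CBPWTp53-floxed the median log2 fold change of the 73 was 0.18, against 0.01 over all genes. With the number term 2 of the 73 were called higher (Chordc1 and Pdia6) and 2 lower (Hspa12a and Fkbp5), against 5.98% and 4.6% of all genes.

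Among the most abundant chaperones, Hsp90ab1, the constitutive HSP90, differed by -0.08 (SE 0.10) with the number term, Hspa9, the mitochondrial HSP70, by 0.01 (SE 0.08) and Hspa5, the HSP70 of the endoplasmic reticulum, by -0.03 (SE 0.10). Cct5 and Cct2, subunits of the cytosolic chaperonin, differed by -0.15 (SE 0.10) and -0.30 (SE 0.09). Hspa4, an HSP110 relative of Hsph1, differed by 0.48 (SE 0.08), and was at 69.8 to 82.7 TPM in the 4 libraries against 42.9 to 53.5 TPM in the 8. Over all genes 8.43% were higher in the 4 by CPM with no overlap and 6.46% were lower. Of the 11 endoplasmic reticulum chaperones 5 were higher in this way and 1 was lower. Of the 9 J-domain co-chaperones 0 were higher and 0 lower. The 8 genes of the cytosolic chaperonin and the 11 mitochondrial chaperones and proteases each had 0 higher and 1 lower. Of the 11 HSP90 paralogs and co-chaperones 5 were higher and 1, Fkbp5, was lower. Of the 9 HSP70 cofactors 1 was higher and 0 lower. Chosen after their values were seen, the HSP90 co-chaperones Stip1 (72.3 to 91.8 against 40.7 to 57.2 TPM) and Ahsa1 (29.2 to 38.5 against 21.1 to 28.3 TPM) and the HSP70 cofactor Bag3 (49.6 to 59.4 against 33.5 to 46.4 TPM) were among these. The median log2 difference of the HSP70 cofactors with the number term was 0.0028. Hsf1 itself was at 11.1 to 14.1 TPM against 6.04 to 9.68 TPM.

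Other RNA-binding families were also examined. Of 5 cold shock domain genes tested, Ybx2 was called higher with the number term (log2 difference 0.65), and Ybx1, the most abundant, differed by 0.11 (SE 0.11). Of 17 CLK kinase and SR protein genes, splicing regulators that respond to temperature, Srsf7 (0.67) and Tra2a (0.75) were called higher, and the median was 0.33 against 0.03 over all genes. By CPM 8 of the 17 were higher in the 4 libraries with no overlap and 0 were lower, against 8.43% and 6.46% of all genes. The term itself was called higher for 5.98% and lower for 4.6% of all genes. Rbmxl1, a relative of Rbm3, was called higher (0.54), and Rbmx differed by 0.02 (SE 0.10). Ribosome biogenesis genes had 0 calls of 12 in edgeR, and of 16 immediate early genes, which rise when tissue is dissociated, 1 was called, Socs3, lower by the term.

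The genes whose log2 CPM followed Cirbp most closely over the 12 libraries were Snhg15, Ggnbp2, Epb41l4aos, Vps11 and Nop53 (Pearson's r 0.958 to 0.978). Etv5, Baz1b, Ganab, Tcaf1 and Adgre5 ran most opposite (-0.969 to -0.964). For Hsph1, Ganab, Cstf3, Rbm10, Gen1 and 9430015G10Rik were closest (0.960 to 0.982). These values describe the ordering of 12 libraries that fall into a set of 4 and a set of 8, and so largely that split. Over the 8 low-numbered libraries, r with Cirbp was -0.828 for Hsph1 and 0.675 for Rbm3, but -0.0212 for Hspa1a, -0.271 for Hspa1b and 0.0870 for Hsp90aa1. It turned from -0.609 over all 12 to 0.764 for Hspd1 and from 0.792 to -0.229 for Hspa8.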

How the data were processed

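The authors deposited raw read counts per gene and TPM per gene for 12 libraries, beside columns of fold changes and p-values from their 5 group comparisons, none of which was used. Per the labels, reads were processed with fastp 0.20.0, FastQC 0.11.9, HISAT2 2.1.0, SAMtools 1.9 and featureCounts of Subread 2.0.1 on GRCm38. The annotation, strand and multi-mapping settings are not given in the sources used here. Libraries hold 11177430 to 18029125 counted reads. Counts were fitted over all 12 libraries and 4 groups by edgeR 4.0.16 under R 4.3.3 (low counts removed by filterByExpr at 10, TMM scaling, robust quasi-likelihood test, Benjamini-Hochberg adjustment over 14610 genes), and DESeq2 1.42.0 and limma 3.58.1 on log2(TPM + 1) were alternatives. SEs are those of the log2 fold change. On simulated counts for 1 comparison of 3 libraries with 3 (14447 genes), the fit called 55 of 84 genes changed by 1 and 105 of 112 changed by 2 on the log2 scale. It also called 12 genes that were not changed. The simulated spread followed the trend over all genes, with no split inside a group, so these rates need not hold for the members. Members and lists were chosen with earlier results of these data known. Named from the lists were genes past the cutoff (at most 12 a comparison by smallest p) and the 2 of each list with the highest mean TPM. The library number was examined after the data were seen. Shared stretches were found in GENCODE M21 transcripts. P-values rest on the spread between mice within groups, estimated over all 4 groups together unless a fit of 2 groups is named.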

Additional observations from a re-analysis of the deposited data

How the results depend on the processing

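Of 29 log2 fold changes of members, each under 9 or 10 other settings and without each library, DESeq2's size factors, both count filters and the replicate block left all on the same side of the cutoff with the same sign. The fit of only the 2 groups compared cannot give an interaction. The settings that use the library number were chosen after seeing the data, and most changes of sign came with them. For CBPAAp53ΔIEC vs. CBPAAp53-floxed the term gave Rbm3 0.00022, Hsp90aa1 -0.075, Hspd1 -0.013 and Hspe1 -0.13. For CBPWTp53ΔIEC vs. CBPWTp53-floxed it gave Cirbp 0.48, Rbm3 0.18, Hspa1a -0.65, Hspa1b -0.27, Hsph1 -0.12 and Hspe1 -0.048, and for CBPAAp53ΔIEC vs. CBPWTp53ΔIEC Cirbp 0.049. Without the 4 high-numbered libraries, which leaves 1 library in each p53ΔIEC group that is assumed to vary like the others, the signs of Hspa1a (-0.62), Hsp90aa1 (-0.091), Hspd1 (-0.069) and Hspe1 (-0.22) turned on the CBPAA allele and those of Cirbp (0.68), Rbm3 (0.38) and Hsph1 (-0.32) on the CBPWT allele. Without them Hspa1a and Hspa1b were also at -0.92 and -0.26 for CBPAAp53ΔIEC vs. CBPWTp53ΔIEC, at -0.76 and -0.076 for CBPAAp53ΔIEC vs. CBPWTp53-floxed, and Hspa1b at -0.11 in the interaction. limma on TPM, which moved the median of all genes to 0.13 for CBPAAp53ΔIEC vs. CBPAAp53-floxed, gave Dnajb1 0.025 there and Cirbp 0.10 for CBPAAp53ΔIEC vs. CBPWTp53ΔIEC, where Cirbp was at 0.28 without the 2 low-numbered p53ΔIEC libraries. Leaving out 1 library at a time, Hspe1 on the CBPAA allele ranged from -0.092 to 0.18, Cirbp on the CBPWT allele from -0.95 to 0.086 and Cirbp for CBPAAp53ΔIEC vs. CBPWTp53ΔIEC from -0.48 to 0.68. The cause was not tested.

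Members past the cutoff, 0 in each comparison, became 1 with DESeq2 for CBPAAp53ΔIEC against either p53-floxed group. Without the 2 low-numbered p53ΔIEC libraries they became 1 for CBPAAp53-floxed vs. CBPWTp53-floxed, 5 and 6 for p53ΔIEC vs. p53-floxed on the CBPAA and CBPWT alleles and 4 for CBPAAp53ΔIEC vs. CBPWTp53-floxed. Leaving out single libraries gave 0 to 2, 0 to 3 and 0 to 2 of them in the last 3 of these comparisons.

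Over all genes, calls for CBPAAp53-floxed vs. CBPWTp53-floxed were 0 in the reported fit, 33 with DESeq2, 3 with no filter on low counts, 4 with the number term, 12 without the low-numbered p53ΔIEC libraries and 0 to 2 without single libraries. For CBPAAp53ΔIEC vs. CBPAAp53-floxed the 4 calls became 73 with DESeq2, 11 with no filter, 1 with only the 2 groups, 2 with the replicate block, 7 with limma, 9 with the term, 1205 without the low-numbered ones and 1 to 326 without single libraries. For CBPWTp53ΔIEC vs. CBPWTp53-floxed the 460 became 863 with DESeq2, 723 with only the 2 groups, 32 with the block, 14 with limma, 306 with the term, 1370 without the low-numbered ones and 1 to 906 without single libraries: 7, 2 and 1 without CBPWTp53-floxed replicates 1, 2 and 3, 906 without CBPWTp53ΔIEC replicate 1, and 7 and 4 without its replicates 2 and 3. For CBPAAp53ΔIEC vs. CBPWTp53-floxed the 3 became 274 with DESeq2, 42 with no filter, 1 with the block, 32 with the term, 912 without the low-numbered ones, 12 without the high-numbered ones and 1 to 467 without single libraries. For CBPAAp53ΔIEC vs. CBPWTp53ΔIEC the 1 call became 0 with only the 2 groups, the block, limma and without either set of libraries, and 0 to 1 without single ones. The interaction's 1 call became 30 with DESeq2, 2 with no filter, 0 with the block and without either set, and 0 to 1 without single libraries.

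No pairing of mice by replicate number was seen. Of 18 pairs of libraries with the same replicate number, 3 had deviations correlated above 0.1 (range -0.519 to 0.541). Only 3 libraries correlated best with their own number. Both extremes joined the p53ΔIEC groups, in replicate 2 (both high-numbered, 0.541) and replicate 3 (high- and low-numbered, -0.519). These correlations carry the split by library number and cannot exclude pairing. The block called 0 members.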
